A study of Homo sapiens with 4 samples.

Results

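S100A10 ChIP-seq peak intervals on chromosomes 5 and 12 are described here for LoVo and HCT116 PGCCs with daughter cells. Every line of the deposited peak lists on these chromosomes was taken, and lines with equal start and end, which are summits of a single interval, were merged. HCT116 had 167 such intervals of 4148 in its whole list, 107 on chromosome 5 and 60 on chromosome 12. LoVo had 169 of 1380, 98 on chromosome 5 and 71 on chromosome 12. The chromosomes were selected on the number of intervals per chromosome in these same lists, since LoVo holds a larger part of its list there, so that difference is given as a description.

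HCT116 and LoVo are established human colorectal cancer cell lines. Both were treated with CoCl2, a hypoxia mimetic that induces polyploid giant cancer cells (PGCCs), at 535.5 μM for 48 h according to the labels, while the study's methods give another dose and schedule. The material was a mixture of PGCCs and the daughter cells they bud off. Each cell line had 1 library from chromatin pulled down with an antibody against S100A10 and 1 input library, 4 libraries in all, and neither untreated cells nor a control antibody is among them. The antibody was the same product in both cell lines, with lot numbers that differ between them according to the labels. The ChIP libraries held 16561424 filtered tags in HCT116 and 19762814 in LoVo, and the inputs held 14962190 and 12925105. With 1 ChIP library per cell line, no difference between the cell lines has a replicate check and no test was run. Cell line, culture, antibody lot and library cannot be told apart.

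S100A10 is a small EF-hand protein of the S100 family that forms a complex with annexin A2 and takes part in plasminogen activation at the cell surface. It has no DNA-binding domain of its own, so a ChIP peak marks DNA recovered with the antibody and not a known recognition site. The DNA next to a centromere is made largely of satellite repeats, whose copies are hard to place with short reads. LoVo is known for extra copies of chromosomes 5, 7 and 12, and the deposited files hold no measurement of copy number.

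Few of these intervals lay at gene starts, and those that did are shown first because they tie a peak to a promoter. Of 167 HCT116 intervals, 4 overlapped a promoter window, which runs from 250 bases before to 50 after an annotated start in RefSeq (GRCh38.p14), against a background of 1.61% of HCT116 intervals on all assembled chromosomes. In LoVo it was 1 of 169, against 0.493%. The sequences below are RefSeq windows on the strand of the gene, and capitals mark the bases inside the peak. They are the HCT116 windows that contain the summit itself and the single LoVo window. The window of BRD9, a bromodomain subunit of a chromatin remodelling complex, lies at chr5:892501-892800 (minus strand). All its 300 bases were inside a peak of 8 ChIP tags. The window of BAZ2A, a subunit of a nucleolar remodelling complex, lies at chr12:56630277-56630576 (minus strand), with 150 bases inside a peak of 8 tags. Both windows belong to starts inside the gene, as BRD9 is annotated up to 892801 and BAZ2A up to 56638318. AQP5-AS1, a noncoding RNA opposite the water channel gene AQP5, lies at chr12:49962734-49963033 (minus strand), with 28 bases inside a LoVo peak of 8 tags.
BRD9 promoter: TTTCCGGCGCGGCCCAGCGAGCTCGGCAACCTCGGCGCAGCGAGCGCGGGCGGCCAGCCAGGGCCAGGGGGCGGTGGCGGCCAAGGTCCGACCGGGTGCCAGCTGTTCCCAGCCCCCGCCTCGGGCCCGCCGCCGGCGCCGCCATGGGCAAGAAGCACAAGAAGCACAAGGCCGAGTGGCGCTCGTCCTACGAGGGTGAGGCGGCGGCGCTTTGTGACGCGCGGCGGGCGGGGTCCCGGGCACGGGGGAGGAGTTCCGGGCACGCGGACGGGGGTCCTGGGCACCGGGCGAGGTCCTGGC
BAZ2A promoter: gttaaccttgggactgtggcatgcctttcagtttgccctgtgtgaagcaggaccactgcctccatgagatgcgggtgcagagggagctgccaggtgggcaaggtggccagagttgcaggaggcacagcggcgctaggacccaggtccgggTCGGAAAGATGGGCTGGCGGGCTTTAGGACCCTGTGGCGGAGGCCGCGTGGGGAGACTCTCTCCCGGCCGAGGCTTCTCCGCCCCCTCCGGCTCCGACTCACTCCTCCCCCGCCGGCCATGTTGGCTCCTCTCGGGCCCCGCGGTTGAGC
AQP5-AS1 promoter: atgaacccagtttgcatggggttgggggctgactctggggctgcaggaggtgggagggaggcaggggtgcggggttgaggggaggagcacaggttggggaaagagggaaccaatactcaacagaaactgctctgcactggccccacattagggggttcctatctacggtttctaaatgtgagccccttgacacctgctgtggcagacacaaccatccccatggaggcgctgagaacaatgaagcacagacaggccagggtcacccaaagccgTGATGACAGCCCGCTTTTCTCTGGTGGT

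The BRD9 window had a GC content of 77.3% and 42 CG dinucleotides, and 5.84% of all 34943 promoter windows reached that GC content. The BAZ2A window had 67.3% GC, and the AQP5-AS1 window had 58.0% with 5 CG dinucleotides. The median over all promoter windows was 58.7% GC and 14 CG dinucleotides. On either strand the letters GGGCGG occurred 3 times in the BRD9 window and 1 time in the BAZ2A window, and 44.9% of all promoter windows hold them. The AQP5-AS1 window held none of them and 1 match to CCAAT, which 34.6% of all windows hold. TATAAA and CACGTG, held by 11.6% and 7.23% of all windows, were in none of the printed windows. The same BRD9 peak covered 215 bases of the window of TRIP13, an AAA+ ATPase of mitotic checkpoint control that starts on the other strand. The outermost annotated start of BRD9 has its window at chr5:892752-893051, with 97 bases in that peak. The other HCT116 windows were those of RILPL2, and of BRAP and ACAD10, which start from a shared region. All 5 intervals had low scores, with a fold enrichment between 2.56 and 3.65 and a −log10 q of at most 0.57. Fold enrichment is the ChIP pileup over the local input background at the summit, and q is the false discovery rate the peak caller gave the peak. The median fold enrichment over all assembled chromosomes was 3.31 in HCT116 and 3.12 in LoVo.

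The share of the list that fell on these chromosomes was larger in LoVo. Of the intervals on assembled chromosomes, the 167 in HCT116 were 4.79% of 3483 (exact 95% binomial interval 4.11 to 5.56), and the 169 in LoVo were 16.7% of 1014 (14.4 to 19.1). These intervals cover counting error only, and neighbouring peaks are not independent. LoVo's share was 3.15 times that of HCT116 on chromosome 5 and 4.06 times on chromosome 12. Among the 24 chromosomes these ratios ranked 3 and 2, after chromosome 7 at 4.18 and ahead of Y at 2.91. In absolute terms the cell lines were alike here, with 0.590 intervals per Mb in HCT116 and 0.540 in LoVo on chromosome 5, and 0.450 and 0.533 on chromosome 12. Over all assembled chromosomes the density was 1.13 in HCT116 and 0.328 in LoVo. Chromosomes 5 and 12 thus ranked 19 and 21 of 24 by density in HCT116, and 6 and 7 in LoVo.

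**Figure D1:**
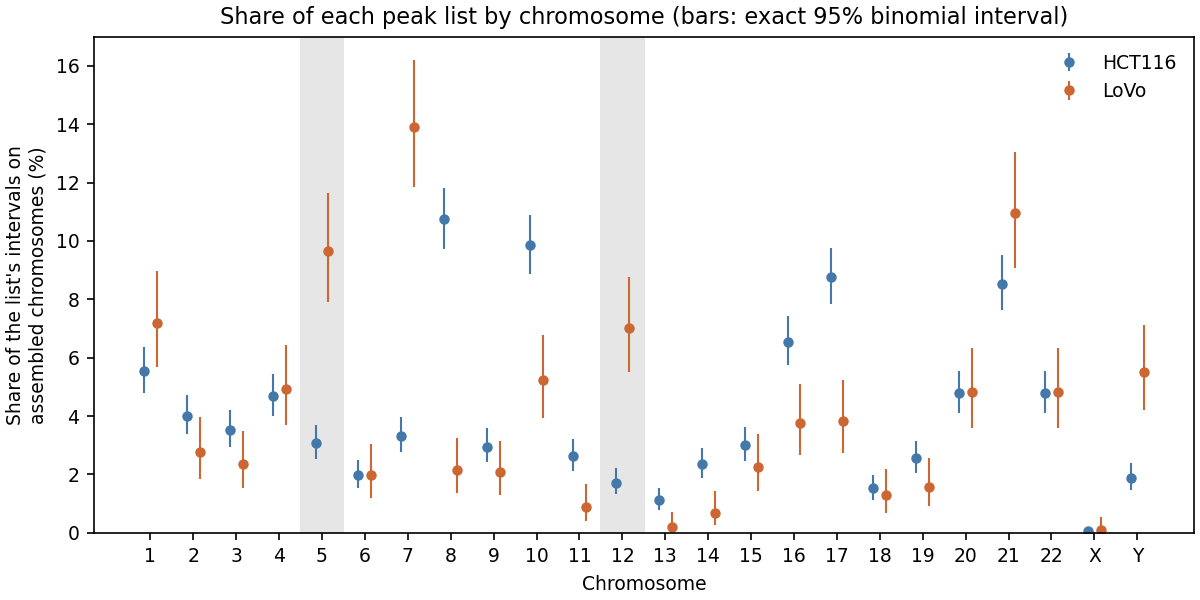
Share of each cell line's intervals on assembled chromosomes (y axis, percent) for each chromosome (x axis), with HCT116 in blue and LoVo in orange; vertical bars are exact 95% binomial intervals and chromosomes 5 and 12 are shaded. LoVo lies above HCT116 on both, at 9.66% against 3.07% on chromosome 5 and 7.0% against 1.72% on chromosome 12.

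On chromosome 5 the difference was not the same on both arms. On the short arm of chromosome 5, 5p, LoVo had 77 intervals and HCT116 29, and LoVo's share was 9.12 times that of HCT116. On the long arm, 5q, the order was turned, with 4 intervals in LoVo and 67 in HCT116, whose share was 4.88 times LoVo's. LoVo thus had 1.67 intervals per Mb on 5p and 0.0307 on 5q, a 54.6-fold difference between arms of the same chromosome, and HCT116 had 0.630 and 0.514, a 1.23-fold difference. Few of these peaks had good scores. At a q of 0.05 or less, LoVo had 7 intervals on 5p and 0 on 5q, where 32.5% of its whole list passed that limit, and 5 of the 7 stood in a single run near 17.5 Mb. HCT116 had 1 and 8, where 25.7% of its whole list did.

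On chromosome 12 LoVo's share was the higher on both arms. LoVo had 16 intervals on 12p and 25 on 12q, and HCT116 had 14 and 43. LoVo's share was 3.93 times that of HCT116 on 12p and 2.0 times on 12q. The pericentromeric window of 34 to 39 Mb stood apart, with 30 intervals in LoVo and 3 in HCT116, a ratio of shares of 34.3. The corresponding window on chromosome 5, 46 to 51 Mb, held 17 in LoVo and 11 in HCT116, a ratio of 5.31. With the intervals outside these windows, still as a share of the whole assembled list, the ratio was 2.90 on chromosome 5, from 81 intervals in LoVo and 96 in HCT116. On chromosome 12 it was 2.47, from 41 and 57. The part of chromosome copy number in these counts was not tested.

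**Figure D2:**
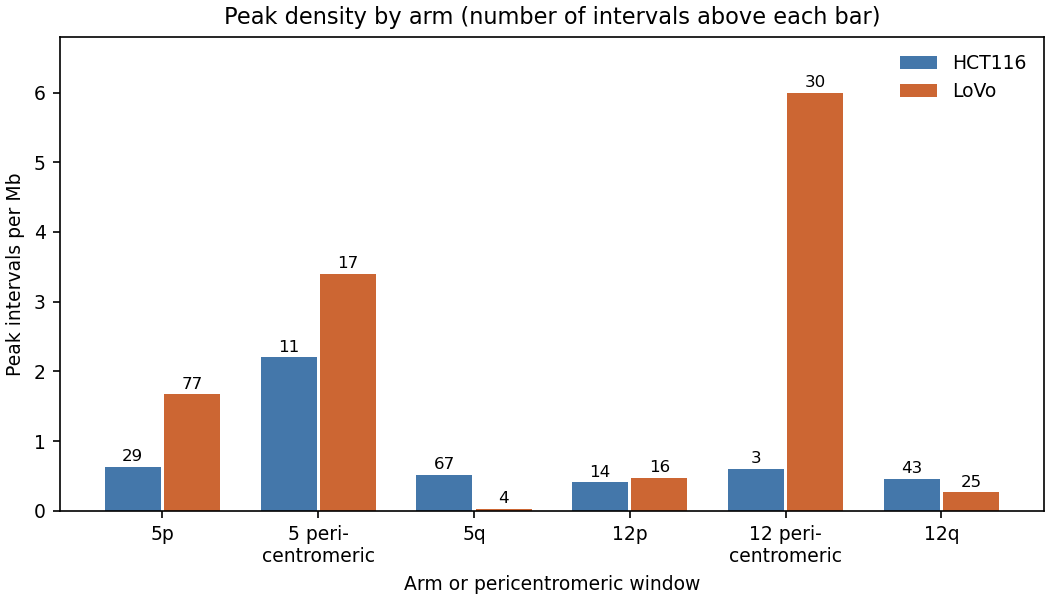
Peak intervals per Mb (y axis) on each arm and in each pericentromeric window of chromosomes 5 and 12 (x axis), with the number of intervals above each bar, HCT116 in blue and LoVo in orange. LoVo is the higher on 5p, in both pericentromeric windows and by little on 12p, and HCT116 is the higher on 5q and 12q.

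The 5p excess of LoVo was densest at the end of the arm. The first 5 Mb of chromosome 5 held 42 intervals in LoVo, 42.9% of its intervals on the chromosome, and 3 in HCT116. By its LoVo count this window ranked 5 of the 631 windows of 5 Mb in the genome. With windows shifted by 2.5 Mb the highest LoVo count on the chromosome was 26. The rest of 5p, from 5 to 46 Mb, held 35 in LoVo and 26 in HCT116, which is 0.854 and 0.634 per Mb. Over all assembled chromosomes the densities were 0.328 and 1.13, so an excess of LoVo by share remained along the rest of 5p. LoVo's 42 intervals spanned 183329 to 4782915 and followed each other at a median spacing of 88.9 kb. Without this window, LoVo's share on the whole of chromosome 5, 5q included, was 1.93 times that of HCT116.

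The peaks of the first 5 Mb were shallow. The LoVo intervals there had 8 to 14 ChIP tags, with a median of 10, and a median fold enrichment of 3.36. None of the 42 reached a q of 0.05, 35 were listed at a −log10 q of 0, as were 47.1% of LoVo's whole list, and the highest stood at 0.88. The local background, which is the input level the peak caller expected at the summit, had a median of 1.10 times the genome-wide mean there. No interval on these chromosomes had a background below that mean beyond rounding. The mean is thus a floor, and at a value equal to it the input itself may be lower. The median was 1.78 times the mean in LoVo's intervals on the other assembled chromosomes.

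Of these 42 intervals, 15 (35.7%) lay in an annotated gene, near the 31.4% of LoVo's intervals on all assembled chromosomes, and the window holds 100 genes. TERT, the catalytic subunit of telomerase, had 1 interval at 1278917 with 10 tags and a fold enrichment of 3.47. SLC6A3, the dopamine transporter, had 2, at 1423705 and 1431753, with 10 and 11 tags. They belong to a run of 6 LoVo intervals between 1247418 and 1432033, a run being at least 3 intervals with gaps of at most 100 kb. On all assembled chromosomes 60% of LoVo's intervals and 48.4% of HCT116's stood in such runs. PDCD6-AHRR, a readthrough transcript, held 3 intervals with 9, 10 and 10 tags, the last of which also lies in AHRR, the aryl hydrocarbon receptor repressor. SLC9A3, a sodium and proton exchanger of the gut epithelium, had 1 interval with 13 tags and a −log10 q of 0.56. HCT116 had no interval in any of these genes.

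LoVo had few intervals on 5q. From 55 to 135 Mb, LoVo had 16 windows of 5 Mb in a row with no interval, and its 4 intervals on 5q began at 136282974. HCT116 had 23 intervals in those 16 windows, 6 of which it also left empty. HCT116's densest stretch of 5q was 150 to 170 Mb, with 29 intervals, where LoVo had 0. These HCT116 peaks had a median of 7 tags and a median fold enrichment of 3.25, and 2 reached a q of 0.05. The highest lay in SLIT3, an axon guidance ligand, with 10 tags, a fold enrichment of 4.45 and 2.04 for −log10 q. SGCD, which encodes the muscle membrane protein delta-sarcoglycan and is over a megabase long, held 5 of them with 6 to 9 tags. LINC03000, a noncoding RNA, held 3 with 7 to 10 tags.

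On chromosome 12 outside the pericentromeric window, the densest LoVo stretch was 45 to 55 Mb, with 14 intervals against 3 in HCT116. They had 8 to 12 tags, and all 14 were listed at a −log10 q of 0. In this stretch of 374 genes, 10 of them (71.4%) lay in genes, near the 60% of LoVo's intervals on all of 12q. On all assembled chromosomes, pericentromeric intervals included, it was 31.4%. Among those genes were HDAC7, a histone deacetylase, ARID2, a chromatin remodelling subunit, and COL2A1, the collagen of cartilage. ACVRL1, a type I receptor of the TGF-beta family, TAMALIN, a scaffold protein, and NR4A1, an orphan nuclear receptor, each had 1 interval in a run of 3 between 51918115 and 52055706. From 55 Mb to the end of 12q the order of the counts turned, with 10 intervals in LoVo and 39 in HCT116. HCT116's list is the longer, with 3483 intervals on assembled chromosomes against 1014 in LoVo. The counts of this stretch were not set against those totals, so they do not show a turn by share. HCT116's densest windows on the chromosome were the first and the last, with 6 intervals each.

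**Figure D3:**
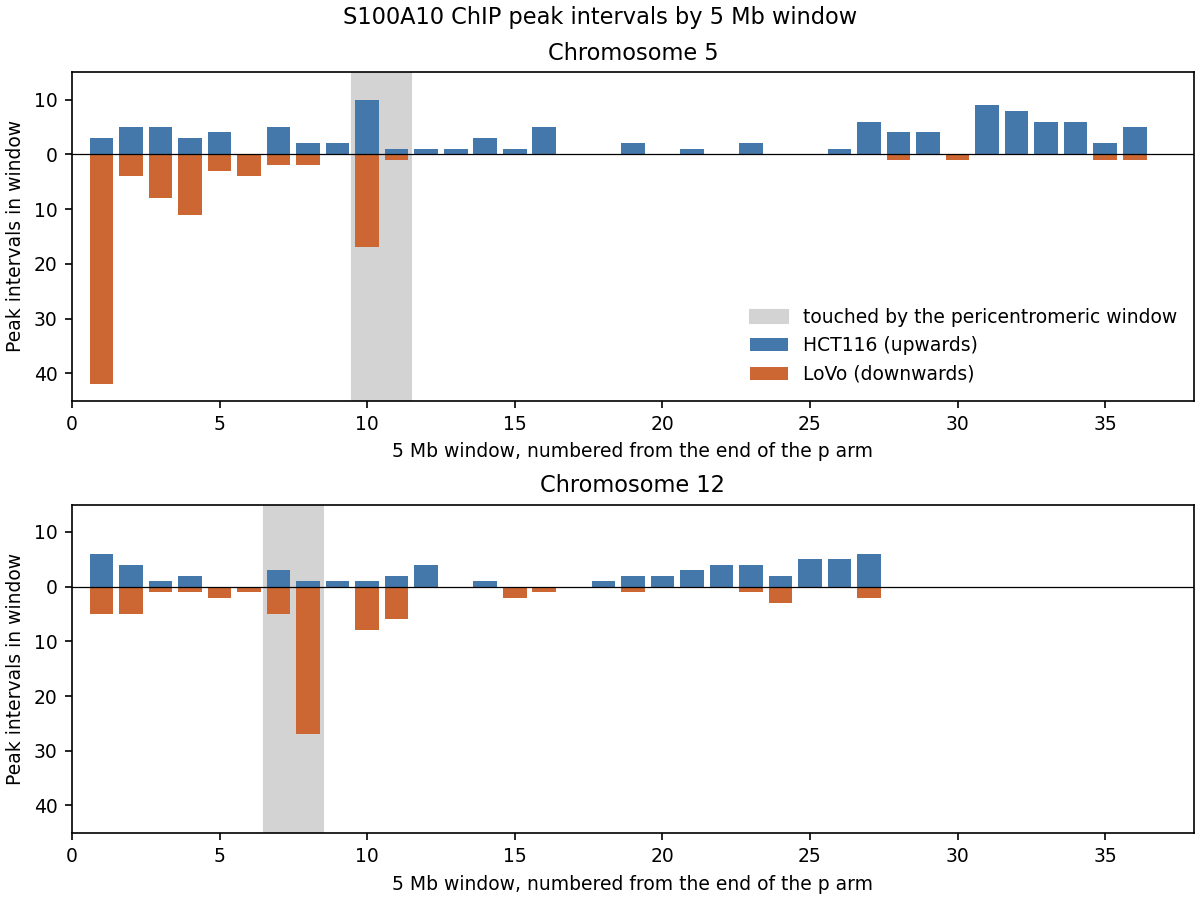
Peak intervals in each 5 Mb window of chromosomes 5 and 12, numbered from the end of the p arm (x axis), with HCT116 counts drawn upwards in blue and LoVo counts downwards in orange; shading marks windows touched by the pericentromeric windows. LoVo is highest in the first window of chromosome 5 with 42 intervals and in the eighth of chromosome 12 with 27, and HCT116 holds most of the intervals on 5q.

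HCT116 occupied 28 of 37 windows on chromosome 5 and 21 of 27 on chromosome 12, and LoVo 14 and 16. Over the 631 windows of the genome HCT116 occupied 76.2% and LoVo 30.3%. More of LoVo's intervals than of HCT116's stood in runs, though in both cell lines the share was below that on all assembled chromosomes. On chromosome 5, 37 of its 98 intervals (37.8%) stood in 6 runs, and on chromosome 12, 21 of 71 (29.6%) stood in 4. HCT116 had 1 run, of 7 intervals, in the pericentromeric window of chromosome 5. On the arms 24 of 81 LoVo intervals of chromosome 5 and 3 of 41 of chromosome 12 lay in runs, against 0 of 153 in HCT116. The counts depended on the gap in both cell lines. With gaps of up to 500 kb, runs held 40 HCT116 intervals on chromosome 5 and 14 on chromosome 12, and 75 and 48 in LoVo. With gaps of up to 50 kb they held 25 and 12 in LoVo, and 7 and 0 in HCT116.

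The strongest run on the arms lay at 17517618 to 17653831 on 5p. It held 7 LoVo intervals, of which 5 reached a q of 0.05, and none of the 7 lay in an annotated gene. Its highest peak, at 17517618, had 30 tags, a 6.87-fold enrichment and a −log10 q of 8.25, the highest on the arms of either chromosome in LoVo. The next ones, at 17527477 and 17526198, had 30 and 51 tags and fold enrichments of 5.16 and 3.12. The local background there was 2.56 times the genome-wide mean at 17527477 and 8.53 times at 17526198. HCT116 had 1 interval in this stretch, at 17598974, with 18 tags, an enrichment of 5.75-fold and a −log10 q of 6.0. On all assembled chromosomes 9.45% of HCT116's and 35.7% of LoVo's intervals overlapped the other cell line. The HCT116 interval at 17598974 overlapped a LoVo interval whose summit was 28 bases away, with 42 tags, a fold enrichment of 3.16 and a background of 6.83 times the mean, against 1.59 times in HCT116. The part of the local background in this run was not tested.

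The pericentromeric peaks were of differing kinds on chromosomes 5 and 12. On chromosome 5, most lay in a cluster between 49533219 and 49667441 that both cell lines had. HCT116 had 7 intervals with 16 summits there, all 7 at a q of 0.05 or less and all 7 overlapping a LoVo interval. LoVo had 13 intervals with 16 summits, 10 of them at a q of 0.05 or less and 11 overlapping HCT116. Tag counts were far above those on the arms, with medians of 191 in HCT116 and 127 in LoVo. The local background was raised as well, to between 8.91 and 51.8 times the genome-wide mean in HCT116 and to as much as 122 times in LoVo. The median fold enrichment was 3.56 in HCT116 and 1.92 in LoVo. The part of the raised input in these peaks was not tested.

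Within the cluster, the HCT116 interval with the highest score, at 49658195, had 250 tags, a fold enrichment of 3.54 and 50.8 for −log10 q. The others among its 5 highest, at 49659221, 49601350, 49599438 and 49656627, had 88 to 243 tags and fold enrichments of 3.53 to 6.61. LoVo's interval at 49658334, which overlaps the first, had 321 tags, a 1.57-fold enrichment and a −log10 q of 4.69, over a background of 114 times its mean. LoVo's highest was at 49630873, with 363 tags, an enrichment of 2.06-fold and a −log10 q of 17.5. The HCT116 interval there had 191 tags, a fold enrichment of 2.63 and 23.2 for −log10 q. LoVo's interval at 49657519 had 152 tags and a fold enrichment of 2.28 over 36.7 times its mean. Of 11 overlapping pairs in this window, 6 had summits within 100 bases of each other. Some LoVo peaks in the window stood on a background at or near the mean, such as 47833177, with 29 tags and a fold enrichment of 8.30, and 49645996, with 24 tags and a fold enrichment of 7.69. Neither overlapped an HCT116 interval. In HCT116 all 4 intervals of the window outside the cluster stood at the mean, with fold enrichments of up to 5.65. Of LoVo's 4 intervals outside the cluster, 1 stood at the mean.

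On chromosome 12, LoVo's 30 pericentromeric intervals spread over 34363334 to 37381122 and stood on a low background. Of the 30, 19 were at the genome-wide mean to within 1%, the floor of this value, so their input may be lower than that. They had a median of 14 tags and a median fold enrichment of 3.8. Of the 30, 13 reached a q of 0.05 and 6 had a fold enrichment of 5 or more. The highest, at 35299828, had 30 tags, a 9.50-fold enrichment and a −log10 q of 12.3, and its fold enrichment was the highest of all intervals on these chromosomes in either cell line. It lay in a run of 9 intervals from 35202031 to 35382231, and a second run, from 35657494 to 35905216, held 6. HCT116 had 3 intervals, between 34793348 and 35059148, with 11 to 14 tags and fold enrichments of 4.25, 4.55 and 4.85, all at a q of 0.05 or less. No interval of either cell line overlapped one of the other there. None of the pericentromeric intervals of either chromosome lay in an annotated gene, in windows with 5 genes on chromosome 5 and 22 on chromosome 12. On all assembled chromosomes 46.6% of HCT116's and 31.4% of LoVo's intervals lay in a gene.

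The windows were fixed in Mb, so the intervals next to their edges were read as well. On chromosome 5 LoVo's last interval before the window, at 45950181, had 11 tags and a fold enrichment of 3.77, and its first inside, at 47108529, had 20 tags and 4.69. HCT116's were at 42542640, with 7 tags and 3.25, and at 46985408, with 8 tags and 3.65. On chromosome 12 LoVo's last interval inside, at 37380842, and its first after the window, at 39509860, had 10 tags each and fold enrichments of 3.37 and 3.17. Apart from 47108529, these neighbours had 7 to 11 tags. Widened by 2 Mb on each side, the windows of both chromosomes held 49 intervals in LoVo in place of 47 and 15 in HCT116 in place of 14.

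**Figure D4:**
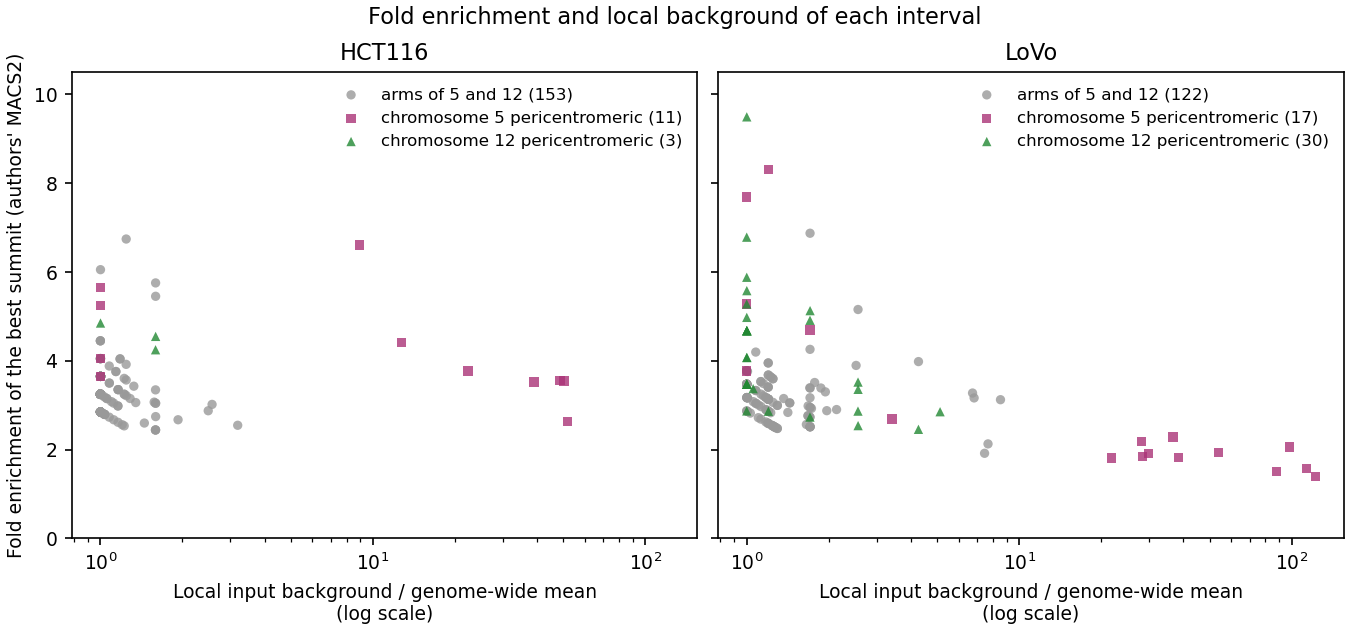
Fold enrichment of the best summit of each interval (y axis) against its local input background as a multiple of the genome-wide mean (x axis, log scale), for HCT116 (left) and LoVo (right), with 1 point per interval. Pericentromeric intervals of chromosome 5 (squares) reach backgrounds of 51.8 and 122 times the mean, and those of chromosome 12 (triangles) stay at or below 5.12 times.

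The arms carried few strong peaks in either cell line. At a q of 0.05 or less there were 10 of 153 arm intervals in HCT116 (6.54%), and 8 of 122 in LoVo (6.56%), both lower than in the whole lists. A −log10 q of 0 was listed for 46 arm intervals in HCT116 (30.1%), against 22.8% of the whole list, and for 99 in LoVo (81.1%). In the pericentromeric windows 12 of 14 HCT116 intervals and 25 of 47 LoVo intervals were at a q of 0.05 or less. Nearest to that limit, which is a −log10 q of 1.30, HCT116 had 1.34 at 164504253 in LINC03000 on 5q, and 1.27 at 176771714 on 5q, a value shared by 7 of its intervals. LoVo had 1.52 at 131576797 on 12q and 1.28 at 49659995 in the chromosome 5 cluster.

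HCT116's highest arm peak lay in CACNA1C, a pore subunit of L-type calcium channels, at 2255817 on 12p, with 18 tags, an enrichment of 6.74-fold and a −log10 q of 7.60. After the peak at 17598974 on 5p came COL23A1, a transmembrane collagen, at 178585452 on 5q, with 17 tags, a fold enrichment of 5.45 and 5.11 for −log10 q. LOC728488, a pseudogene on 5q, had 14 tags and a fold enrichment of 6.05. TCF7, a transcription factor of the Wnt pathway, came next with 10 tags and a fold enrichment of 4.45, tied with intervals in TRPC7, a cation channel, and SLIT3. In LoVo 4 of the 5 highest arm peaks lay in the run at 17.5 Mb. The other, at 34190928 in C1QTNF3, a secreted C1q family protein, and the pseudogene LOC646652, had 43 tags and a fold enrichment of 3.27 over a background of 6.74 times the mean.

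Few positions were common to both cell lines. In HCT116, 10 of 167 intervals (5.99%) overlapped a LoVo interval by at least 1 base, a lower share than on all assembled chromosomes. In LoVo, 14 of 169 (8.28%) overlapped HCT116, which is also below its share on all assembled chromosomes. Apart from the chromosome 5 cluster, there were 3 shared positions, all on the arms of chromosome 5. They were 17598974, 34190328 in C1QTNF3, and 178585452 in COL23A1. At COL23A1 the summits were 34 bases apart, HCT116 had 17 tags over a background of 1.59 times the mean, and LoVo had 31 tags over 7.68 times, with a −log10 q of 0. On chromosome 12 no interval was shared.

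Genes with a peak were more numerous in HCT116. Of 5663 annotated genes on these chromosomes, HCT116 had a peak in 106, which is 1.87%, against 2.27% of all genes, and LoVo in 59, which is 1.04%, against 0.433%. Protein-coding genes made up 75 and 37 of them. Of all intervals on chromosomes 5 and 12, 100 of 167 in HCT116 (59.9%) lay in a gene, against 46.6% on all assembled chromosomes. In LoVo it was 57 of 169 (33.7%), near its 31.4% on all assembled chromosomes. Both cell lines had a peak in 7 genes, 6.60% of the HCT116 genes and 11.9% of the LoVo genes. On all assembled chromosomes 64 genes had a peak in both, 4.77% of the HCT116 genes and 25% of the LoVo genes. The 7 genes on chromosomes 5 and 12 were CACNA1C, COL23A1, C1QTNF3 and TRPC7, with the pseudogenes GUSBP1 and LOC646652 and the noncoding RNA LINC01194. In CACNA1C the peaks lay apart, at 2255817 and 2602055 in HCT116 and at 2072416 and 2075281 in LoVo, where they had 10 and 8 tags. In GUSBP1 LoVo had 22 tags and a −log10 q of 1.89 at 21482446, and HCT116 had 10 tags and 0.58 at 21495844.

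Apart from the cadherin group, the gene groups relevant to S100A10 and to colorectal cancer had few or no members with a peak. Of 79 cadherin, protocadherin and catenin genes on these chromosomes, 16 (20.3%) had a peak in HCT116 and 0 in LoVo. Among all genes on these chromosomes, 1.87% had a peak in HCT116 and 1.04% in LoVo. Of these 16, 14 are the protocadherin alpha gene cluster and its members, which overlap one another and rest on 2 intervals, at 140802927 and 140899830. The other 2 were CDH12, a cadherin of the nervous system, with 7 tags in each of 2 intervals, and CTNND2, a delta-catenin, with 6 and 7 tags. These 2 genes are long, at 1102672 and 932611 bases. No peak in the cadherin group had a −log10 q above 0.53. LoVo had 1 of 10 TGF-beta family genes, ACVRL1, and 1 of 13 colorectal cancer genes, TERT, and HCT116 had 0 of either. None of 9 MAPK family genes, 54 keratin genes and 2 genes of the annexin and plasmin system had a peak in either cell line. The gene share over both chromosomes, given above, is the background for these counts.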

How the data were processed

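ChIP and input DNA of HCT116 and LoVo PGCCs with daughter cells were sequenced in 1 library each. Per the file headers, the authors called peaks on uniquely mapped reads without duplicates with MACS 2.1.0.20150420 at a p cutoff of 0.005, with no fragment model, summits called, and tags extended to 260 bp (HCT116) or 281 bp (LoVo). As deposited, the signal column gives stacked ChIP tags at each summit, which the authors scaled to the input. The deposited fold is the ratio of pileup to local background with a pseudocount of 1. The deposited −log10 p and −log10 q columns have damaged names, and the p-value column was recognised by recomputing it and the other taken in the order MACS writes. The aligner is not given in the sources used here.

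The lists name no build. Their unplaced sequences carry GRCh38 names, so genes and promoters came from RefSeq (GRCh38.p14), leaving 583 entries placed on alternate sequences out. ChIP tags and local background were recovered from pileup, scale and fold, and 100% of summits gave whole tags to within 0.02 of a tag. With a minimum of 6 tags in HCT116 and 8 in LoVo, most positions rest on few tags. Intervals were counted by arm, by 5 Mb window and by run, with Clopper-Pearson 95% intervals for shares, in Python 3.11.15 with pandas 2.3.3 and scipy 1.17.1. Score limits, window sizes, gap limits and gene definitions were varied, and counting steps were tested on simulated data.

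The text names the 5 highest peaks by −log10 q of each list inside and outside the pericentromeric windows, the densest windows, runs of 5 or more intervals, peaks nearest the q limit, genes with a peak in both cell lines or with 3 or more intervals, and listed genes with a peak. The result of 1 gene list is not reported here. Other genes and positions were chosen after their values were seen. The members and gene lists were chosen with earlier results of these data known.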

Additional observations from a re-analysis of the deposited data

How the results depend on the processing

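Of 74 alternatives for 26 values, 37 moved, a count by over 1.5 times or a ratio of shares beyond the range that the 95% binomial bounds of its shares allow. Both ratios of shares stayed above 1 under their 12 alternatives, and the other values are counts. No paired analysis was possible because each cell line has 1 ChIP library, and leaving out a replicate could not be run for the same reason. The limit of q 0.05 and the alternatives for 5p and 5q were added after seeing the data. Arm intervals (153 in HCT116, 122 in LoVo) numbered 10 and 8 at a q of 0.05, 7 and 6 at a −log10 q of 2, and 4 and 2 at a fold enrichment of 5. Pericentromeric intervals in LoVo fell from 47 to 25, 18 and 9 under the same limits, and HCT116 had 4 at a fold enrichment of 5 and 23 with every summit counted. On 5p HCT116 kept 1 interval under each limit, and LoVo kept 7, 6 and 2. On 5q HCT116 kept 8, 5 and 2, and LoVo 0. Without the first 5 Mb LoVo had 35 intervals on 5p. The ratio of shares on chromosome 5 was 1.93 without that window and 2.56 to 3.08 under the score limits. On chromosome 12 it rose to 8.49 at a q of 0.05 and 25.1 at a fold enrichment of 5, where HCT116 had 1 interval and LoVo 6, was 6.35 at a −log10 q of 2, and was 2.58 with pericentromeric intervals taken out of the lists' totals as well and 2.63 without the window with most LoVo intervals. With windows shifted by 2.5 Mb the highest LoVo count on chromosome 5 was 26. With gaps of up to 500 kb, runs held 40 HCT116 and 75 LoVo intervals on chromosome 5 and 14 and 48 on chromosome 12. LoVo had 12 on chromosome 12 with gaps of up to 50 kb. At a −log10 q of 2, 6 genes had a peak in HCT116 and 2 in LoVo. LoVo had 98 with gene bodies extended by 5 kb and 37 with protein-coding genes alone. Fewer intervals tested make the counts under a limit lower, and the cause of the other changes was not tested.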
